A study of Homo sapiens with 2 samples.

Results

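The Wnt pathway genes described here are 43 genes grouped by their known roles: 19 transcriptional targets and feedback inhibitors, 11 receptors, 7 genes of the β-catenin destruction complex and of Dishevelled, and 6 nuclear proteins. They were taken by name, with all of their probe sets. Of the 43 genes, 41 had at least 1 probe set that the platform annotation gives to that gene alone, out of 19775 genes so named, and 35 were measured, out of 10514 genes measured in all. The samples were AGS cells, an epithelial line from a human gastric adenocarcinoma, on 1 array labelled control and 1 array labelled galectin-3 silenced. Silencing was by small interfering RNA against galectin-3, the lectin encoded by LGALS3, and the labels call the other array only a control, so the treatment of its cells is not known here. A gene counted as measured where its probe set was above a background floor on at least 1 array, which was 138.4 signal units for the control and 109.5 for the silenced cells. With 1 array per group there was no replicate spread, so no test was made and no value has an error. The precision of every value here is limited by this number of arrays.

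In canonical Wnt signalling a secreted ligand binds a Frizzled receptor and an LRP co-receptor, Dishevelled is recruited, and the complex of AXIN, APC, GSK3 and casein kinase 1 that marks β-catenin for breakdown is stopped. β-Catenin then enters the nucleus and drives genes bound by TCF and LEF proteins, several of which encode inhibitors that dampen the same pathway. In the epithelium of the stomach and intestine the pathway is known for maintaining stem cells, and AGS cells are known to carry an activating mutation of CTNNB1, the gene of β-catenin. The comparison asked whether the genes that the pathway drives differed between the arrays, and whether the genes that carry the signal did so too.

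LGALS3 itself had a signal of 20206 in the control and 2700 after silencing, a log2 ratio of -2.90. All ratios here are log2 of silenced over control signal. All 7 epithelial markers listed were above the floor on both arrays, among them EPCAM with signals of 18867 and 19383, while CDH1, the E-cadherin gene, had 298.1 and 532.0. The median log2 ratio of the 7 was 0.51, and all 7 were above 0, except that 2 were below it when the poly-A controls of the arrays were set equal. Of 8 gastric markers 2 were above the floor, GATA6 and MUC1, and the secreted stomach products TFF1, TFF2, MUC5AC and MUC6 were under the floor on both arrays. Of 8 leukocyte markers on the array 7 were under it on both, PTPRC among them, and the other was LYZ. Of 10 fibroblast markers 4 were above it on at least 1 array, COL1A1, PDGFRA, ACTA2 and THY1, and COL1A2, COL3A1, DCN and LUM were under it on both. Of 4 endothelial markers 1 was above the floor, PECAM1, and on the silenced array only, with signals of 127.4 in the control and 121.0 after silencing. Summed signals went from 91877 to 112539 for the epithelial list and from 3852 to 3044 for the fibroblast list. Of the fibroblast genes PDGFRA, the gene of a growth factor receptor, had 2296 and 921.1, and without it the fibroblast sum was higher on the silenced array, not lower. Its probe sets ran from -1.32 to 0.70. COL1A1, a collagen gene, had 816.3 and 1502, with probe sets from -0.55 to 0.88. The part of these lists in the Wnt results was not tested.

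Promoter sequences are shown for the 3 target genes, of those searched, that were found to hold the letters TCF and LEF proteins are known to bind. The words searched were CTTTGAA, the variant with another last letter CTTTGAT, and with a different sixth letter both CTTTGTA and the last of the set, CTTTGTT, on both strands, and no 2 matches overlapped in these promoters. Each sequence is the 250 bases before the start of the gene in RefSeq, build GRCh38.p14, written 5′ to 3′ on the gene's strand, with matches in capitals.
SP5, chr2:170715087-170715336, plus strand: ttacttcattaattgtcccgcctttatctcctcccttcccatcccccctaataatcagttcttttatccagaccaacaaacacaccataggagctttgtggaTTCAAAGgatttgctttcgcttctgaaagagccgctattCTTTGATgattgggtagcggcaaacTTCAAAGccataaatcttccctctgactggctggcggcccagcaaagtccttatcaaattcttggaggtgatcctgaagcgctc
DKK1, chr10:52314031-52314280, plus strand: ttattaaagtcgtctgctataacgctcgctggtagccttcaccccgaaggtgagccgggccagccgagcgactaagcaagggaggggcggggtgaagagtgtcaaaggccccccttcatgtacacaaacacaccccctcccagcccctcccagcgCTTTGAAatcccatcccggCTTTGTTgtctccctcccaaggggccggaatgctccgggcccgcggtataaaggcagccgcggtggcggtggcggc
FGF18, chr5:171419397-171419646, plus strand: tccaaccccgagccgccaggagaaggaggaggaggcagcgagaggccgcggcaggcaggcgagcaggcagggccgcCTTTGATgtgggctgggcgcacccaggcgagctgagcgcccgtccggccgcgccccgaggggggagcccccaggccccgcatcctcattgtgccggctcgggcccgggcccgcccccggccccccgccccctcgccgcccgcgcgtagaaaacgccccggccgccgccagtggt

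The SP5 promoter held 3 matches, which began 148, 109 and 84 bases before the start of the gene, and the first and last of these lay on the opposite strand. The DKK1 promoter held 2, beginning 95 and 76 bases before the start, and the FGF18 promoter 1, at 174 bases. The table of promoters matched 29 of the 43 genes, some with several starts. Of the 19 target and feedback genes it matched 10, and ZNRF3, FGF20 and NOTUM were among those without an entry. Of 12 promoters of target and feedback genes 3 held a match (25%), of 15 promoters of receptors, destruction complex and Dishevelled genes 0 did, and of 9 promoters of nuclear genes 2 did, in TCF7 and TCF7L2. Among all 35116 promoters of this length 11.96% held a match and 43 (0.122%) held 3 or more, as that of SP5 did. A match describes these letters in this window only. On the arrays SP5 was higher after silencing, with a log2 ratio of 0.33, while DKK1 was lower, with -0.38, and FGF18 also, with -0.46. These 3 target genes with the letters close to the start thus did not share a direction, and the targets without an entry were not searched.

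Genes were counted where the log2 ratio reached 1 in either direction, which is 2-fold. On that count 2 of the 35 measured Wnt genes were higher on the silenced array, beside 3.31% of all genes measured, and 1 was lower, beside 3.07%. The higher genes were ZNRF3 and FGF20 and the lower gene was NOTUM, and all 3 are targets or feedback inhibitors. With so few genes, these counts are not read as standing apart from the shares of all genes. Of the 34 genes above the floor on both arrays 2, again ZNRF3 and FGF20, lay outside the central 95% of genes in the same of 20 bins of signal, where 5% of genes lie by construction.

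**Figure D1:**
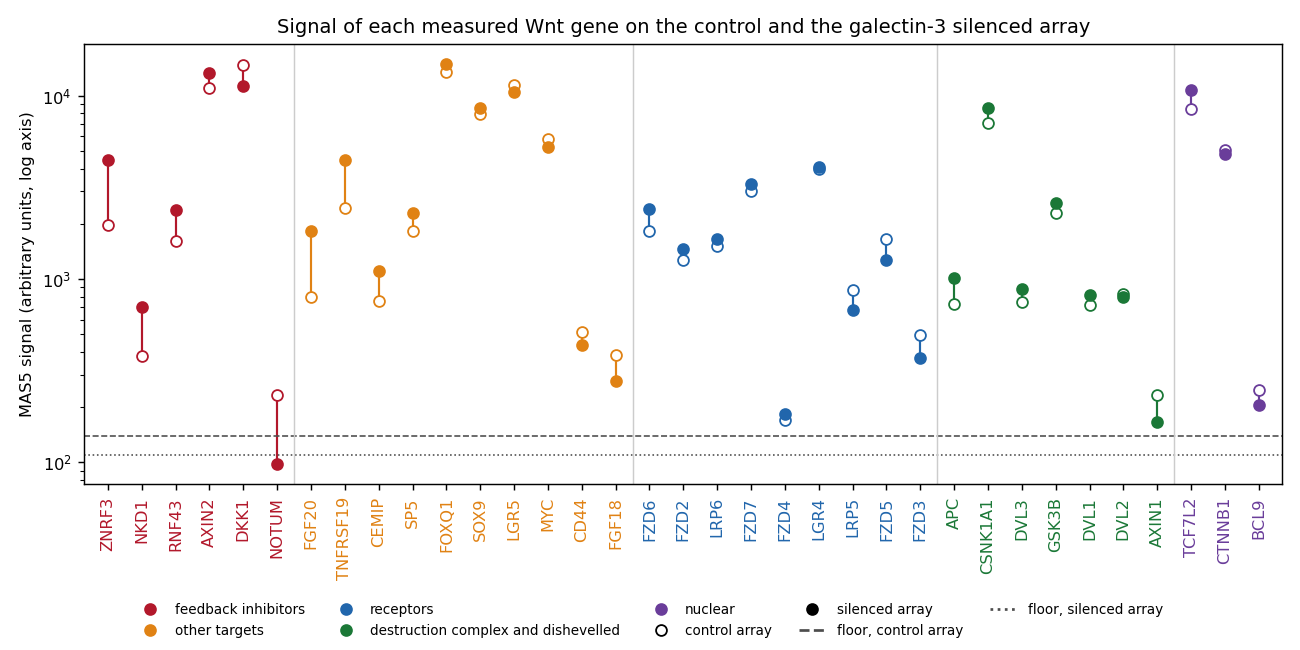
MAS5 signal (log axis) of the probe set standing for each of the 35 measured Wnt genes, on the control array (open circles) and the silenced array (filled circles), coloured by role, with the background floor of each array as a dashed or dotted line. The open and filled circles lie farthest apart for ZNRF3, FGF20 and NOTUM, and NOTUM falls under the floor on the silenced array.

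Among the feedback inhibitors, ZNRF3 and RNF43 are membrane ubiquitin ligases that remove Frizzled receptors from the cell surface. ZNRF3 had a signal of 1972 in the control and 4475 after silencing, a log2 ratio of 1.18 or 2.27-fold. Its ratio lay just above the range of -1.19 to 1.12 that held 95% of genes of like signal. RNF43 went from 1615 to 2361, a log2 ratio of 0.55, which is inside that range for its own signal (-1.03 to 0.93). Both ligases were therefore higher after silencing, RNF43 short of 2-fold, and each is measured by a single probe set.

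NKD1, which binds Dishevelled and inhibits it, had signals of 378.4 and 704.9, a log2 ratio of 0.90. Its second probe set gave 207.9 and 213.4, a log2 ratio of only 0.04, so the probe sets of NKD1 differed in size by more than is usual between probe sets of a gene (an SD of 0.32 over 4728 genes). Another NKD1 probe set was above the floor on the silenced array only, with 187.5, so that its log2 ratio was at least 0.44. Of the 2 measured on both arrays, the one near 0 was below 0 under the uniform poly-A shift. AXIN2 encodes a scaffold of the destruction complex and is a widely used reporter of pathway activity. All 4 AXIN2 probe sets were higher on the silenced array, with log2 ratios from 0.21 to 0.42, though the lowest of them was -0.03 once the poly-A controls were made equal. The one that stood for the gene had signals of 10931 and 13266, a log2 ratio of 0.28, which is inside the range of genes of like signal (-0.79 to 0.58).

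Both DKK1 and NOTUM, which are secreted, were lower. DKK1 blocks the LRP co-receptors, and it gave 14636 for the control and 11257 for the silenced cells, a log2 ratio of -0.38, inside the range of genes of like signal (-0.79 to 0.58). NOTUM is an enzyme that inactivates Wnt ligands by removing their lipid. It gave 231.6 for the control and 97.3, under the floor, for the silenced cells, so it was at least 2.11-fold lower. NKD2, a relative of NKD1, and APCDD1, a membrane inhibitor, were under the floor on both arrays. Of 6 measured feedback inhibitors 4 were thus higher and 2 lower, with a median log2 ratio of 0.41, or 0.55 over the 5 above the floor on both arrays.

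Of the other targets, FGF20 encodes a fibroblast growth factor, which gave 793.8 for the control and 1817 for the silenced cells. The log2 ratio was 1.19, just outside the range of -1.22 to 1.06 for genes of like signal. TNFRSF19, a receptor of the tumour necrosis factor family also known as TROY, was higher on all 3 of its probe sets. Their signals were 2436 and 4472, 475.1 and 1076, and 478.3 and 882.4, in the order control and silenced. The log2 ratios were 0.88, 1.18 and 0.88, so that 1 of the 3 passed 2-fold and the one that stood for the gene did not. CEMIP, which takes part in the breakdown of hyaluronan, went from 759.8 to 1098, a log2 ratio of 0.53. SP5, a zinc finger repressor, went from 1821 to 2294, a log2 ratio of 0.33.

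The remaining targets with small ratios were LGR5, MYC, FOXQ1 and SOX9, put together here by their size. LGR5, the R-spondin receptor that marks gastrointestinal stem cells, had signals of 11460 and 10424 on one probe set and 3314 and 3237 on the other, with log2 ratios of -0.14 and -0.03. MYC, which promotes growth, had 5821 and 5256, a log2 ratio of -0.15. FOXQ1, a forkhead factor, had 13422 and 14860 (0.15), and SOX9 had log2 ratios of 0.12 and 0.20 on its 2 probe sets. All 4 ratios are smaller than the shift between ways of scaling the arrays: LGR5 and MYC were above 0 when 0.18 was added to every gene (hybridization controls set equal), FOXQ1 and SOX9 were below 0 when 0.23 was taken from every gene (poly-A controls set equal), and the 5 other scalings kept each sign. ASCL2, a factor of intestinal stem cells, was under the floor on both arrays.

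CD44, a receptor for hyaluronan with many splice forms, was lower on all 7 probe sets measured on both arrays. The probe set used for the gene value of CD44 had signals of 516.4 and 433.7, a log2 ratio of -0.25, and the 6 others ran from -0.43 to -1.28. The lowest were the 2 of the cross-hybridising _x_at kind. One of these had signals of 768.1 and 316.9, and the other had 683.6 and 327.7 (-1.06). The probe set used for CD44 was therefore the one with the smallest difference of the 7. FGF18 went from 382.6 to 279.1, a log2 ratio of -0.46, on the 1 of its 6 probe sets that was above the floor.

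**Figure D2:**
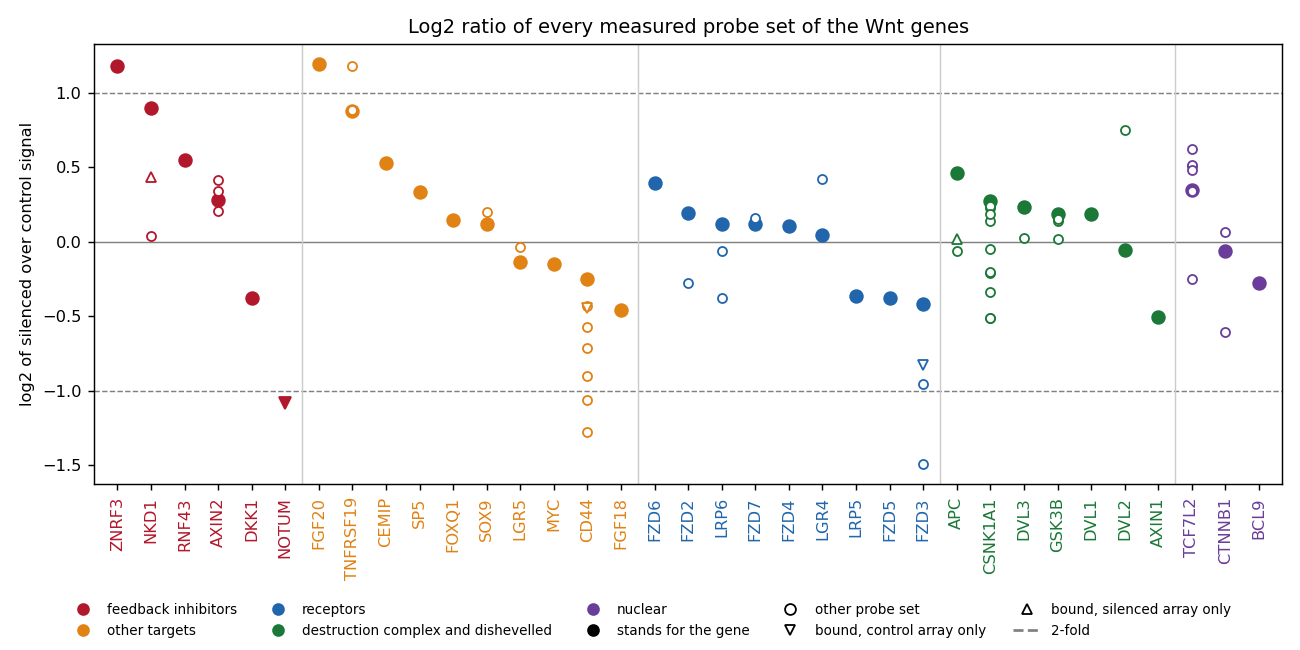
Log2 of silenced over control signal for every measured probe set of the Wnt genes, grouped and coloured by role. Filled symbols stand for the gene, open symbols are its other probe sets, triangles are bounds, and dashed lines mark 2-fold. The 7 CD44 circles all lie under 0, the 3 TNFRSF19 circles lie from 0.88 to 1.18, and the 11 CSNK1A1 circles lie on both sides of 0.

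At the cell surface 9 receptor genes were measured and 0 passed 2-fold, beside the 3.31% and 3.07% of all genes. Their log2 ratios ran from -0.42 to 0.39 with a median of 0.11. FZD6 was the highest, with signals of 1818 and 2391. FZD2 had 1264 and 1447 (0.20), though its second probe set gave -0.28, and both FZD7 probe sets were close to 0, at 0.12 and 0.16. FZD4 was close to the floor, with 170.7 and 183.8 (0.11). The ratios of FZD2, FZD4 and FZD7 are smaller than the 0.23 that the poly-A controls take from every gene, and were below 0 under that scaling alone.

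Lower on the silenced array were FZD5, with 1643 and 1262 (-0.38), and FZD3. For FZD3 the probe set used for the gene value had 496.3 and 372.1, a log2 ratio of -0.42. Its other probe sets differed more. One had 675.7 and 239.7 (-1.50), another 251.5 and 130 (-0.95), and the last, with 194.7 and 47.4, was under the floor on the silenced array, which puts its log2 ratio at -0.83 or lower. All 4 FZD3 probe sets were thus lower, and the median over them was -0.89. FZD1 stayed under both floors, and the 3 probe sets of FZD8 carry the name of a microRNA gene as well, so FZD8 has no value here.

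The co-receptors LRP5 and LRP6 bind Wnt together with Frizzled. LRP5 had signals of 866.1 and 673.3, a log2 ratio of -0.36. LRP6 had 1520 and 1655 (0.12) on the probe set that stood for it, and its other 2 probe sets gave -0.38 and -0.06. LGR4, an R-spondin receptor that protects Frizzled from ZNRF3 and RNF43, had 3970 and 4091 (0.04), and 166.9 and 223.3 on a second probe set (0.42). The probe sets of LRP6 thus lay on both sides of 0, and the ratios of LRP6 and LGR4 are small enough to be below 0 under the uniform poly-A shift.

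All 7 genes of the destruction complex and of Dishevelled were above the floor on both arrays, and 0 passed 2-fold, which in so few genes is not read against the 3.31% and 3.07% of all genes. AXIN1, the constitutive scaffold of the complex, was the lowest of them, with signals of 233.5 and 164.9, a log2 ratio of -0.50. AXIN1 and AXIN2 therefore had ratios of opposite sign, each inside the range of genes of like signal (-0.96 to 0.65 for AXIN1). The AXIN1 value rests on 1 probe set close to the floor. APC, the tumour suppressor that holds β-catenin in the complex, had 731.2 and 1010 (0.47) on one probe set and 266.5 and 255.2 (-0.06) on another.

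GSK3B, the kinase that marks β-catenin, had 2279 and 2599 (0.19), and its 3 other measured probe sets were also slightly above 0, from 0.02 to 0.15, though all 4 turned negative with the poly-A controls set equal. CSNK1A1, the casein kinase that primes β-catenin for GSK3, was covered by 11 probe sets measured on both arrays, 5 of them higher and 6 lower, from -0.51 to 0.27. Of the Dishevelled genes, which carry the signal from the receptor, DVL1 had 720.1 and 821.1 (0.19) and DVL3 had 751.1 and 883.9 (0.23), of which DVL1 was below 0 under the poly-A shift. DVL2 had 823.4 and 794.4 (-0.05) on one probe set and 146.9 and 247.6 (0.75) on another. The latter probe set, close to the floor on the control array, was the largest difference among the measured probe sets of these 7 genes.

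In the nucleus CTNNB1, the gene of β-catenin itself, had signals of 5034 and 4829, a log2 ratio of -0.06, which was above 0 under the uniform hybridization shift. Its other probe sets gave 0.07, with 623.8 and 652.8, and -0.61, with 286.9 and 188.2. TCF7L2 encodes the main TCF protein of the gut epithelium. It was higher on 6 of 7 probe sets, with 8433 and 10739 (0.35) on the one that stood for it, and the 6 ran from 0.34 to 0.63. The seventh had 311.8 and 262.3 (-0.25). BCL9, a coactivator bound to β-catenin, had 249.2 and 205.3 (-0.28). TCF7L1 and LEF1 stayed under both floors, and TCF7 was not among the genes the annotation names, so TCF7L2 was the one TCF or LEF gene measured.

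Set against each other, targets and feedback genes had a median log2 ratio of 0.21 over 16 measured genes, and receptors, destruction complex and Dishevelled genes had 0.12 over 16. The difference of medians was 0.09, or 0.16 without NOTUM, which was above the floor on 1 array. Over 14 alternative settings the difference ran from 0.09 to 0.17. Scalings that shift every gene alike could not move it, nor could counting TCF7 and LEF1 as targets, since neither was measured. The median of all genes was -0.02. Of the 16 targets and feedback genes 10 had a ratio above 0 (62.5%), as did 11 of the 16 receptor and transducer genes (68.8%), beside 48.6% of all genes measured. Unlike the role groups, all genes include bounds without a direction in their total, and 5112 were above 0 and 5049 below. The medians of both role groups were thus close together and slightly above that of all genes. Both turned to under 0, at -0.02 and -0.11, with the poly-A controls of the arrays set equal, a scaling that put the median of all genes at -0.25.

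The role groups differed more in how far single genes spread than in their medians. Leaving out NOTUM again, the log2 ratios of 15 targets and feedback genes had an SD over genes of 0.55, close to the 0.52 of all 9579 genes measured on both arrays, and those of the 16 receptor, destruction complex and Dishevelled genes an SD of 0.30. The middle 50% of the first group ran from -0.14 to 0.71 and that of the second from -0.13 to 0.21. The second SD is about that between probe sets of 1 gene, 0.32. The spread was compared after the values had been seen. In each of 13 alternative settings the targets had the wider spread, with an SD of 0.52 to 0.67 against 0.27 to 0.35. Some of these settings could not alter it. A scaling that shifts every gene alike leaves an SD as it is, and so does leaving out the floor for genes above it on both arrays. This is a description of 2 arrays and was not tested.

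**Figure D3:**
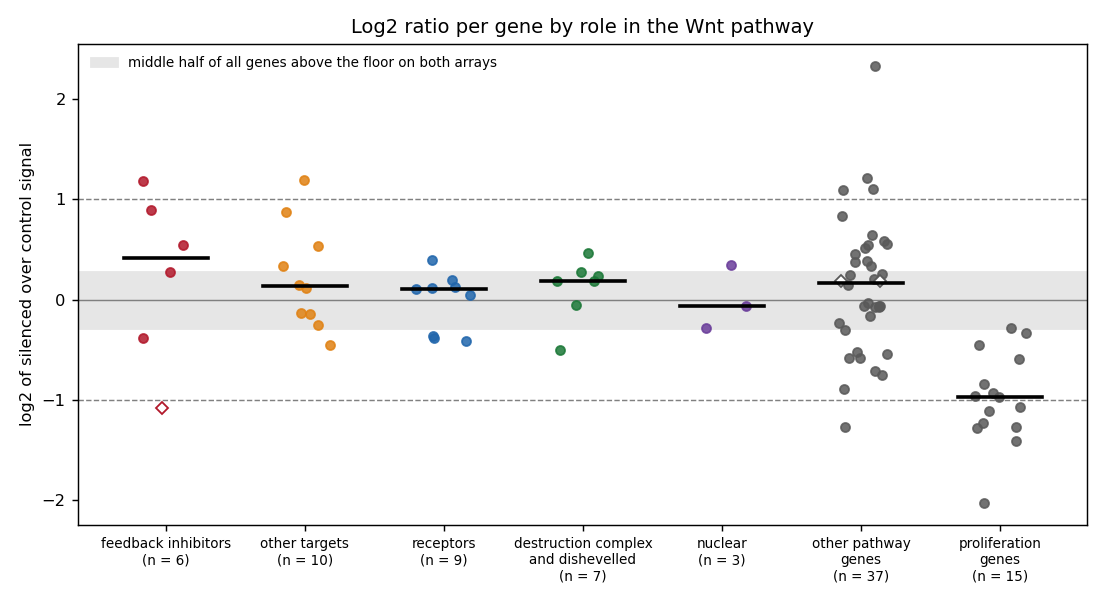
Log2 ratio per gene by role (circles; diamonds are bounds), with the list median as a black bar and the middle 50% of all genes above the floor on both arrays in grey. Feedback inhibitors and other targets reach up to 1.19, receptors and transducers stay within -0.50 and 0.47, and the proliferation genes all lie under 0; KREMEN2, whose bound has no direction, counts in the median of the other pathway genes but is not drawn.

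The Wnt genes were measured by 116 probe sets, of which 79 were above the floor on both arrays, 5 on 1 array and 32 on neither. Of the 79, 3 were at least 2-fold higher, beside 3% of the named probe sets measured on both, and 3 at least 2-fold lower, beside 3.17%. The 3 higher were those of ZNRF3 and FGF20 and 1 of TNFRSF19. The 3 lower were 2 of CD44 and 1 of FZD3. For 18 genes 2 or more probe sets were measured on both arrays, and 8 of these genes were higher on all of them, 3 were lower on all and 7 had probe sets on both sides of 0. The SD between probe sets of 1 gene was 0.31 in the Wnt genes and 0.32 in all genes with several probe sets, which is a spread on the same RNA and not between cultures.

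Setting the hybridization controls of the arrays equal adds 0.18 to every log2 ratio, and setting the poly-A controls equal takes 0.23 from it, so a ratio of opposite sign that is smaller than the shift changes sign by construction. This was so for 13 of the 35 genes, 4 under the first and 9 under the second, and under the 4 other scalings 0 of the 35 changed sign. The 13 were LGR5, MYC, FOXQ1 and SOX9 among the 16 targets and feedback genes, FZD2, FZD4, FZD7, LRP6 and LGR4 among the 9 receptors, GSK3B, DVL1 and DVL2 among the 7 transducers, and CTNNB1. Over the 6 scalings ZNRF3 ranged from 0.95 to 1.36, FGF20 from 0.96 to 1.38, and NOTUM, as a bound, from -1.31 to -0.82. ZNRF3 and FGF20 therefore did not pass 2-fold under every scaling. The NOTUM bound did not either, but a bound short of 2-fold does not show that the gene itself was.

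Of 79 other genes of the pathway, from a list of ligands, inhibitors, further receptors, kinases, cofactors and targets, 38 were measured, 4 were at least 2-fold higher, beside 3.31% of all genes, and 1 was at least 2-fold lower, beside 3.07%. Their median log2 ratio was 0.16, but it differed by part of the list. The 13 targets measured had a median of 0.54, with 9 above 0 and 4 below. The 8 kinases and other cytoplasmic genes had -0.07, with 2 above 0 and 6 below. The 10 nuclear cofactors had 0.16, and the 2 further receptors were both below 0. Most of the 6 cytoplasmic ratios below 0, those from -0.16 to -0.06, are smaller than the 0.18 that the hybridization controls add to every gene. So is that of the further receptor at -0.07, and under that scaling all of these were above 0. These targets and cytoplasmic genes thus lay farther apart than the role groups of the 43 genes did. This was not tested, and the lists were chosen with earlier results of these data known, so it is not read as a difference between roles. Of 17 Wnt ligand genes on the array only WNT5B and WNT6 were above the floor, with 186.8 and 182.6 for WNT5B and 139.1 and 164.8 for WNT6. WLS, which carries Wnt ligands to the cell surface, had 3450 and 3991 (0.21), and its other probe sets gave 0.17 and -0.28. All 4 R-spondin genes and all of SFRP1, SFRP2, SFRP4, SFRP5, FRZB and WIF1, which bind and block Wnt ligands, were under the floor on both arrays.

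The higher genes were KREMEN1, MMP7, JUN and PLAUR. KREMEN1 encodes a receptor for DKK1 that removes LRP6 from the surface, and it had signals of 245.4 and 528.9, a log2 ratio of 1.11. Another 2 KREMEN1 probe sets were above the floor on the silenced array only, with log2 ratios of at least 1.28 and 0.39. MMP7, a matrix protease, went from 166.6 to 840.0 (2.33) on its 1 probe set, so its control signal was close to the floor of 138.4. PLAUR, the urokinase receptor, was higher on 3 probe sets, with log2 ratios of 1.21, 1.71 and 2.25. The last of these also had a control signal close to the floor, 152.4. JUN, a subunit of the factor AP-1, was higher on 3 probe sets, from 1.10 to 1.34. The lower gene was CLDN1, a tight junction gene, with 2014 and 831.6 (-1.28) and -0.93 on its second probe set. CCND1, the cyclin often named as a target, had 5459 and 2941 (-0.89), short of 2-fold, and -0.43 on its second probe set. The 5 genes past 2-fold kept their direction under all 6 scalings, on every probe set named. Under the poly-A shift the probe sets that stood for KREMEN1, JUN and PLAUR fell short of 2-fold, at 0.87, 0.86 and 0.98. The other JUN and PLAUR probe sets named stayed past it. MMP7 and the probe set that stood for CLDN1 were past 2-fold under all 6 scalings, at 2.10 or more and -1.09 or lower. Among cofactors TLE1, a corepressor of TCF proteins, had 5146 and 8045 (0.64) and was higher on all 4 of its measured probe sets, while TLE3, of the same family, had 827.6 and 491.0 (-0.75), with -0.62, -0.23 and 0.09 on its other probe sets.

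A list of proliferation genes is given beside the targets because MYC and CCND1 act on growth. All 15 were lower on the silenced array, and so under each of 6 scalings, with a median log2 ratio of -0.97. Of these 7 were at least 2-fold lower, beside 3.07% of all genes. The count ran from 5 to 11 over the scalings, while that of all genes ran from 183 to 633. MKI67, a marker of dividing cells, had signals of 4550 and 1709 (-1.41). Of the 16 targets and feedback genes 6 were lower too, MYC (-0.15) among them, and 10 were higher. CCND1, of the other pathway list, was lower (-0.89). The part of growth state in the Wnt results was not tested.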

How the data were processed

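On a linear scale, 1 intensity per probe set and array was deposited, computed with MAS5 per the submitters' processing notes. Those notes give no version, scaling target or filter. The 2% trimmed mean was 500.07 on both arrays, so this scaling was kept. Equal means leave a change of RNA content per cell unseen. Of 54675 probe sets 41097 carry 1 gene symbol in the platform annotation, and the others, which carry several symbols or none, were not used to name a gene. The identifiers of the 41 Wnt genes so named matched the RefSeq table of GRCh38.p14 with the same symbol.

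On each array the floor was percentile 95 of the 135 olfactory receptor probe sets, and lower signals were raised to it. A ratio with 1 signal under the floor is therefore a bound. A gene was represented by the brightest of its probe sets (mean log2 over both arrays), with _x_at ones used only where there was no other. Ratios, counts past 2-fold and medians were computed in Python 3.11.15 (pandas 2.3.3, statsmodels 0.14.6 for lowess), and the steps were tested on simulated data. Alternatives changed the scaling, floor, probe set rule or lists. All 43 genes are accounted for, and of the other pathway list those past 2-fold were named. The ligands, WLS, CCND1, the TLE genes and the markers given with values were named after their values were seen. The genes and lists were chosen with earlier results of these data known.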

Additional observations from a re-analysis of the deposited data

How the results depend on the processing

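Of the log2 ratios of single Wnt genes 8 moved by more than the SD between probe sets of a gene (0.32), all under another rule for the probe set. The other 472 values did not, but most of these settings could not move a ratio so far, since 3 scalings shift every gene by 0.18, -0.23 or 0.02, the floor leaves bright genes as they are, and the change of lists alters no ratio. Taking the median over probe sets, NKD1 was at 0.44, FZD3 at -0.89, APC at 0.02, CSNK1A1 at -0.13 and DVL2 at 0.35. Without _s_at and _x_at probe sets APC was at 0.02 and CSNK1A1 at -0.21, and with _x_at included CD44 was at -1.28. Counts past 2-fold depended on the scaling. With the hybridization controls set equal 4 genes were higher, NKD1 and TNFRSF19 being added, and 0 lower, and the medians were 0.39 for targets and 0.30 for receptors and transducers, with all genes at 0.17. With the poly-A controls set equal 0 genes were higher, and the medians were -0.0204 and -0.11, with all genes at -0.25. Both shift every gene alike, so the difference of 0.09 between the role groups is the same by construction. NOTUM was not called lower, leaving 0 lower genes, with lowess fitted above the floor, a floor 2 times higher, or an offset of 50. With _x_at included 2 were lower, CD44 and NOTUM. The other alternatives kept 2 higher genes and 1 lower. TCF7 and LEF1 counted as targets altered nothing, neither being measured. No paired analysis was possible because each group has 1 array. Signals near the floor limit NOTUM, FZD4, AXIN1 and BCL9, and MMP7 of the other pathway list.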
